A study of Arabidopsis thaliana with 41 samples.

Results

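Starch synthesis in Arabidopsis thaliana leaves was examined through 10 genes that encode the enzymes turning glucose 1-phosphate into starch. They are the ADP-glucose pyrophosphorylase genes APL1, APL2, APL3, APL4 and APS1, the soluble starch synthase genes SS1, SS2, SS3 and SS4, and the granule-bound starch synthase gene GBSS1. The genes were picked by locus identifier for their place in the pathway, by a rule that uses no measured value, though with earlier results of these data known. All 10 of 10 were among the 21164 loci measured. Rosette leaf RNA came from 7 natural accessions, namely Ag-0, Bil-5, Ull2-5, Eden-1, Tamm-2, Got-22 and Omo2-3, and the labels name no transgene or mutation in any of them. Each accession was sampled from dry pots, in which the water remaining was lowered step by step to about 50%, and from wet pots kept near 90%. There were 20 dry and 21 wet arrays of biotin-labelled cRNA, 3 to a group, but only 2 for dry plants of Ag-0. All plants grew 1 to a pot under a 10 h photoperiod at 23 °C by day and 18 °C by night, and neither plant age nor the hour of harvest is given in the sources used here.

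Starch is built inside the chloroplast. ADP-glucose pyrophosphorylase, a complex of small and large subunits, makes ADP-glucose and is the committed, redox- and metabolite-controlled step. Starch synthases then add the glucose units to growing chains, which branching and debranching enzymes shape into a granule. In leaves the granule fills by day and is consumed at night, while in roots and seeds it serves as a longer store.

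Values are log2 signals, 1 per locus and array. Array medians lay between 5.66 and 5.79, and arrays of 1 group correlated with each other at 0.951 to 0.991 on average. Array quality weights were under 0.5 for 3 arrays, which were replicate 2 of wet Bil-5, replicate 3 of dry Tamm-2 and replicate 3 of dry Bil-5, so the drying and accession results that change without them are given both ways. The weights were estimated from these same values and are low where an array lies far from its group. The photosynthesis genes RCA, CA1 and PSBO1, as leaf markers, averaged 10.50 to 13.03 on dry arrays and 10.41 to 12.99 on wet arrays. The 5 root markers averaged 4.26 to 4.63 on dry arrays and 4.34 to 4.54 on wet arrays. The replicates are called biological in the series' design text.

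Of the 10 starch synthesis genes, 7 rose under mild drying and 0 fell, as means over the 7 accessions, and 3 did not pass the test. Over all loci 12.2% rose and 11.5% fell by the same rule, an adjusted p under 0.05 in limma. The risers were SS4, SS1, APS1, SS2, GBSS1, APL3 and APL1, and the genes that did not pass were APL4, APL2 and SS3. Of the risers, APS1, SS4 and GBSS1 were higher in all 7 accessions, which held for 7.96% of all loci. The median change of the 10 genes was 0.59 log2 units, against -0.0002 over all loci. Of the changes, APL3 and GBSS1 had the largest means, and SS4 and SS1 had the smallest p-values. Without the 3 arrays of low weight 8 genes rose, APL4 being added, against 13.2% of all loci. Bulk leaf RNA does not tell more RNA per cell apart from a larger share of the cells that hold it.

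**Figure D1:**
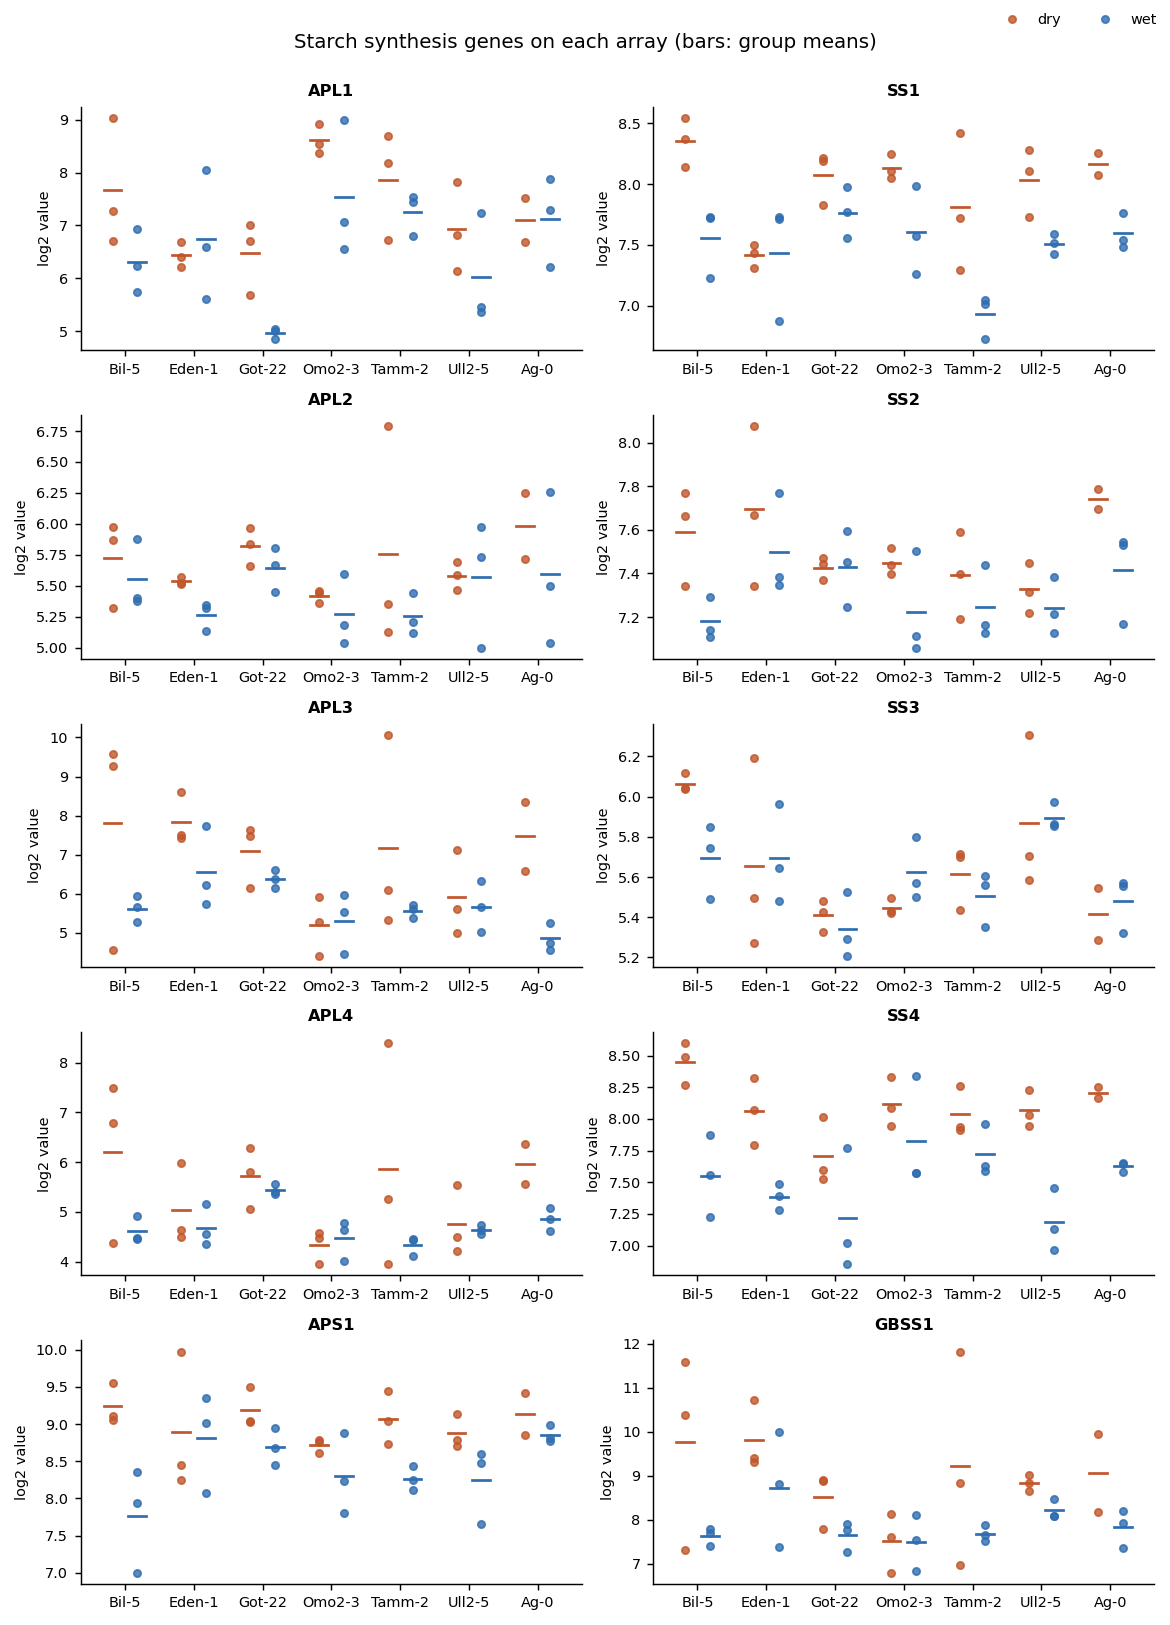
Log2 value of each of the 10 starch synthesis genes (y axis) on each of the 41 arrays, by accession (x axis), with dry arrays in orange to the left and wet arrays in blue to the right; horizontal bars are group means. SS4 and SS1 lie higher on dry arrays in most accessions with little scatter, while APL3, APL4 and GBSS1 scatter widely among dry Bil-5 and dry Tamm-2 arrays.

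APS1 (AT5G48300, listed as ADG1 in RefSeq) encodes the catalytic small subunit of ADP-glucose pyrophosphorylase. Its value ran from 8.25 to 9.97 on dry arrays, with a median of 9.03, and from 7.001 to 9.36 on wet arrays, with a median of 8.45. The distributions overlapped over all arrays, but within 4 of 7 accessions (Bil-5, Got-22, Tamm-2 and Ull2-5) every dry array was above every wet array. Of all loci, 6.78% were separated in that way in Got-22, 7.08% in Tamm-2, 8.92% in Bil-5 and 10% in Ull2-5. The shares were 7.47% for Omo2-3, 7.95% for Eden-1 and 15.3% for Ag-0, where 2 dry arrays met 3 wet ones. The mean change of APS1 was 0.60 ± 0.14 (SE; limma adjusted p = 0.00216), a 1.51-fold rise with a 95% interval of 1.24 to 1.84, and it was positive in 7 of 7 accessions. The smallest change was 0.08 in Eden-1 and the largest 1.47 in Bil-5.

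APL1 (AT5G19220) encodes the main large subunit of leaves. It ran from 5.69 to 9.03 on dry arrays (median 6.92) and from 4.84 to 8.99 on wet arrays (median 6.59). The spread between arrays of 1 group was wide, with a pooled SD of 0.79 for dry and 0.89 for wet groups, larger than that of 98.9% of loci taken over all groups. APL1 rose by 0.73 ± 0.25 (limma adjusted p = 0.0346), with positive changes in 5 of 7 accessions, from -0.31 in Eden-1 to 1.505 in Got-22. In Got-22 it read 6.70, 5.69 and 7.02 on dry arrays, against 4.84, 5.04 and 5.01 on wet arrays, with no overlap. The call is a narrow one. Leaving out 1 of 14 arrays ended it, with adjusted p-values from 0.0501 (replicate 1 of dry Omo2-3) to 0.0738 (replicate 3 of dry Ag-0). It also ended without Bil-5 (adjusted p = 0.0989), Got-22 (0.152), Omo2-3 (0.0783), Tamm-2 (0.0551) or Ull2-5 (0.0638).

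APL3 (AT4G39210) encodes a large subunit known mainly from sink tissues, where sugars raise its transcript. It ran from 4.41 to 10.07 on dry arrays (median 6.86) and from 4.46 to 7.75 on wet arrays (median 5.66). The mean change was 1.22 ± 0.37 (limma adjusted p = 0.0165), 2.32-fold with a 95% interval of 1.37 to 3.94. The dry arrays of Bil-5 and of Tamm-2 lay far apart. In Bil-5 the gene read 9.58, 9.26 and 4.56 on dry arrays, against 5.65, 5.27 and 5.94 on wet arrays. In Tamm-2 it read 6.09, 5.33 and 10.07 on dry arrays, against 5.39, 5.61 and 5.71 on wet arrays. Both accessions thus had dry arrays far above and dry arrays below their wet ones. Only Ag-0 showed no overlap, with 8.35 and 6.59 on dry arrays and 4.75, 5.25 and 4.57 on wet arrays. In Eden-1 the gene changed by 1.28, in Got-22 by 0.71, in Ull2-5 by 0.25 and in Omo2-3 by -0.11, none of them past the test. Without Ag-0 it averaged 0.98 and missed the threshold (limma adjusted p = 0.0891), while without the 3 arrays of low weight it was 1.22 (0.000252).

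APL4 (AT2G21590), the other large subunit linked to sink tissues, followed the same arrays. It ran from 3.95 to 8.39 on dry arrays (median 5.16) and from 4.02 to 5.55 on wet arrays (median 4.64). The lowest 25% of all values in the table lay below 4.38, a level that APL4 reached on some arrays of both kinds. Its mean change of 0.69 ± 0.26 did not pass over all arrays (limma adjusted p = 0.0560). It passed without the 3 arrays of low weight (0.63 ± 0.15, adjusted p = 0.00328), and also without any 1 of 5 arrays, namely Bil-5 dry replicate 3 (adjusted p = 0.0100), Tamm-2 dry replicate 2 (0.0099), Tamm-2 dry replicate 1 (0.0440), Got-22 dry replicate 3 (0.0479) or Ull2-5 dry replicate 1 (0.0487). APL2 (AT1G27680), a large subunit expressed in leaves beside APL1, differed by 0.24 ± 0.11, with a 95% interval of 0.0032 to 0.47. That change was positive in 7 of 7 accessions and did not pass over all loci (limma adjusted p = 0.141; unadjusted 0.0472).

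**Figure D2:**
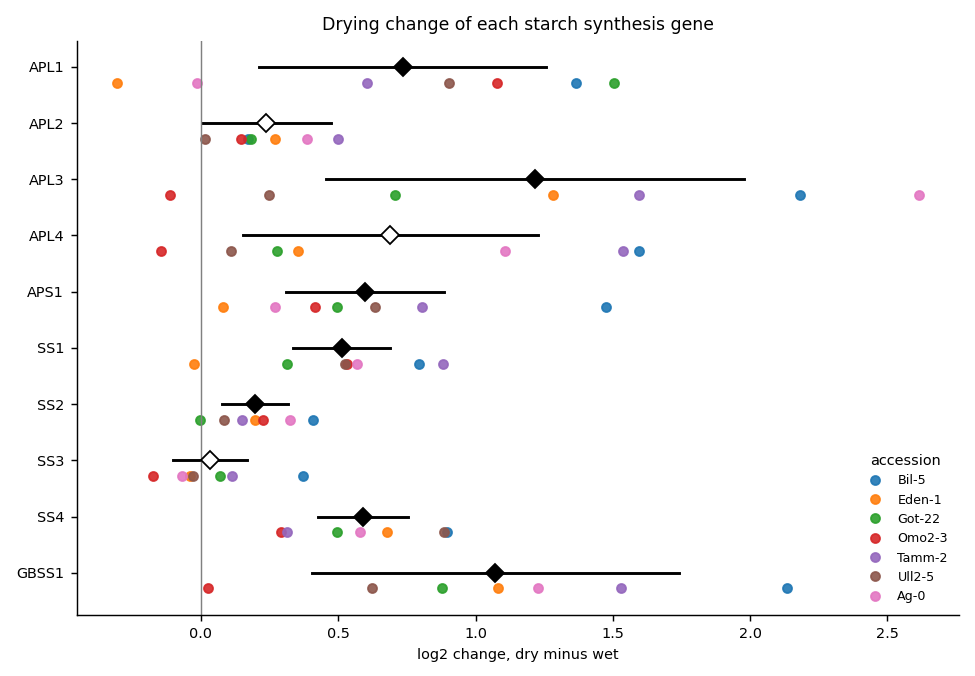
Drying change of each gene in log2 units, dry minus wet (x axis): diamonds are means over the 7 accessions with 95% intervals, filled where limma's adjusted p was under 0.05, and coloured points below each diamond are the single accessions. SS4 spans 0.29 to 0.90 over accessions, whereas APL3 spans -0.11 to 2.62.

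SS4 (AT4G18240), which starts new granules and sets their number, gave the clearest change. It ran from 7.52 to 8.60 on dry arrays (median 8.08) and from 6.85 to 8.34 on wet arrays (median 7.57). The rise was 0.59 ± 0.08 (limma adjusted p = 4.71e-06), 1.51-fold with a 95% interval of 1.35 to 1.69. It was positive in 7 of 7 accessions, from 0.29 in Omo2-3 to 0.90 in Bil-5. Dry and wet arrays did not overlap in Bil-5, Eden-1, Ull2-5 and Ag-0. In Ag-0 the gene read 8.16 and 8.25 on dry arrays, against 7.58, 7.65 and 7.64 on wet arrays.

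SS1 (AT5G24300), which elongates the shortest chains, rose by 0.51 ± 0.09 (limma adjusted p = 6.22e-05). It ran from 7.29 to 8.54 on dry arrays (median 8.11) and from 6.72 to 7.98 on wet arrays (median 7.55). In 5 of 7 accessions dry arrays were all above wet arrays. In Eden-1 the gene read 7.43, 7.496 and 7.31 on dry arrays, against 7.73, 7.71 and 6.87 on wet arrays, a change of -0.02 with overlap. SS2 (AT3G01180), which extends chains of intermediate length, rose by a small 0.20 ± 0.06 (limma adjusted p = 0.0137), from -0.0036 in Got-22 to 0.41 in Bil-5. Its values ran from 7.19 to 8.07 on dry arrays and from 7.06 to 7.77 on wet arrays, and without Bil-5 it came to 0.16 and missed the threshold (0.0757). SS3 (AT1G11720), which makes longer chains and can also help to start granules, read a median of 5.52 on dry arrays and 5.57 on wet arrays. Its mean change of 0.03 ± 0.07 had a 95% interval of -0.10 to 0.17 (limma adjusted p = 0.777). A rise of the size seen in SS1 or SS4 thus lay outside that interval. By accession SS3 ran from -0.17 in Omo2-3 to 0.37 in Bil-5, neither past the test. Every dry array was below every wet one in Omo2-3 and above in Bil-5. On average over accessions, 9.18% of all loci were separated downward in that way and 9.07% upward.

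GBSS1 (AT1G32900), which makes amylose inside the granule, read between 6.79 and 11.83 on dry arrays (median 8.87) and between 6.82 and 9.99 on wet arrays (median 7.78). Its rise of 1.07 ± 0.33 (limma adjusted p = 0.0160) was positive in 7 of 7 accessions. It ranged from 0.03 in Omo2-3 to 2.14 in Bil-5. The dry arrays of Bil-5 read 11.59, 10.38 and 7.32, against 7.40, 7.69 and 7.78 on its wet arrays. Those of Tamm-2 read 8.84, 6.96 and 11.83, against 7.88, 7.65 and 7.51. As with APL3, Bil-5 dry replicate 3 was the low array and Tamm-2 dry replicate 3 the high one. Ull2-5 alone showed no overlap, with 9.01, 8.65 and 8.83 on dry arrays and 8.07, 8.09 and 8.46 on wet arrays.

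Within single accessions, 5 changes passed limma's threshold over all loci when the 10 genes were tested in each of the 7, and all 5 were rises. The share of all loci that rose was 0.0945% in Eden-1, 0.0567% in Got-22, 0% in Omo2-3 and 0.213% in Ag-0, where 0 of the 10 genes passed. In Bil-5, where 2.86% of all loci rose, these were APS1, SS1 and SS4. SS4 read 8.49, 8.26 and 8.60 on dry Bil-5 arrays, against 7.56, 7.22 and 7.87 on wet ones, a rise of 0.90 ± 0.21 (limma adjusted p = 0.0138). APS1 rose there by 1.47 ± 0.37 (0.0192) and SS1 by 0.80 ± 0.22 (0.0394). In Tamm-2, with 0.35% of loci rising, SS1 read 7.29, 7.72 and 8.42 on dry arrays, against 6.72, 7.01 and 7.04 on wet ones, a rise of 0.88 ± 0.22 (0.0438). In Ull2-5, with 0.529% of loci rising, SS4 read 8.23, 8.03 and 7.95 on dry arrays, against 6.97, 7.46 and 7.13 on wet ones (0.88 ± 0.21, limma adjusted p = 0.0284).

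With a single accession's arrays in limma 0 of the 5 passed, although the changes were the same. Those fits have fewer arrays to estimate the spread, and why the calls ended was not tested. Single arrays also ended the calls. APS1 in Bil-5 ended without dry replicate 1 (adjusted p = 0.0899) or wet replicate 1 (0.127), SS4 in Bil-5 without wet replicate 2 (0.0719) or the 3 low-weight arrays (0.66, 0.136), and SS1 in Bil-5 without dry replicates 1 or 2 or wet replicates 1 or 2 (0.172 at the highest). SS4 in Ull2-5 ended without any 1 of its 6 arrays (0.1002 at the highest), with changes of 0.78 to 1.02. SS1 in Tamm-2 ended without any 1 of 9 arrays. Of these, 4 belonged to other accessions and left the change at 0.88 (0.0523 at the highest), and without Tamm-2 dry replicate 3 it was 0.58 (0.306). Bil-5 dry replicate 3 worked the other way. Without it, 7 genes passed in Bil-5, where 4.84% of all loci then rose: APL3 (3.80 ± 0.86, adjusted p = 0.00967) and GBSS1 (3.36 ± 0.82, 0.0152), APL4 (2.52 ± 0.67, 0.0237) and SS2 (0.53 ± 0.17, 0.0483) beside APS1, SS1 and SS4.

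The test of whether the 7 accessions differed in their drying change called 0 of the 10 genes, against 0.0284% of all loci. The smallest unadjusted p was 0.132, for SS1, with an adjusted p of 0.966, and 0 of the 10 genes had an unadjusted p under 0.05. Limma with array quality weights also called 0 of them, as did limma without the 3 arrays of low weight, where APL3 came nearest (adjusted p = 0.184). The different sizes of the APL3 change in Ag-0 and Omo2-3 are therefore not shown to differ.

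Levels averaged over both water levels differed between accessions for 4 of the 10 genes (APL1, SS3, SS1 and SS4), against 31.4% of all loci. With 10 genes, that count is not shown to exceed the share over all loci. How well the probes match each accession's sequence was not checked. On wet arrays alone 0 of these 4 passed (limma adjusted p = 0.102 for APL1, 0.0821 for SS3, 0.144 for SS1 and 0.261 for SS4), and the gene called there was APL4 (0.0215). Without Got-22 the calls of APL1 (0.0855) and SS4 (0.136) ended. That of SS4 also ended without Ull2-5 (0.0526) or without replicate 1 or 2 of either Got-22 group (0.0688 to 0.0810). Against the mean of the others, the shares of all loci called higher and lower were 1.86% and 1.66% for Ag-0, 2.24% and 2.26% for Bil-5, 3.95% and 3.85% for Got-22, and 10.7% and 8.09% for Eden-1. They were 4.79% and 3.2% for Ull2-5, 3.58% and 4.25% for Tamm-2, and 3.18% and 4.83% for Omo2-3. Of the 70 gene and accession pairs 6 passed, or 8.57%, a share near the 8.34% over all loci. APL1 was lowest in Got-22, at a mean of 5.72 over both water levels against 7.13 in the other 6 accessions (-1.42 ± 0.36, limma adjusted p = 0.0114). It was highest in Omo2-3, at 8.08 against 6.74 (1.34 ± 0.36, adjusted p = 0.0182). Omo2-3 read 8.92, 8.38 and 8.55 on dry arrays and 8.99, 6.56 and 7.06 on wet arrays. Between those ends the order ran from Ull2-5 (6.47) through Eden-1 (6.59), Bil-5 (6.99), Ag-0 (7.12) and Tamm-2 (7.57), with array values of neighbours overlapping. The Omo2-3 call ended without its dry replicate 1 (0.0611) or wet replicate 1 (0.153), and also without Got-22 among the others (1.13, 0.0707), and the Got-22 call without its dry replicate 2 (0.0711).

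**Figure D3:**
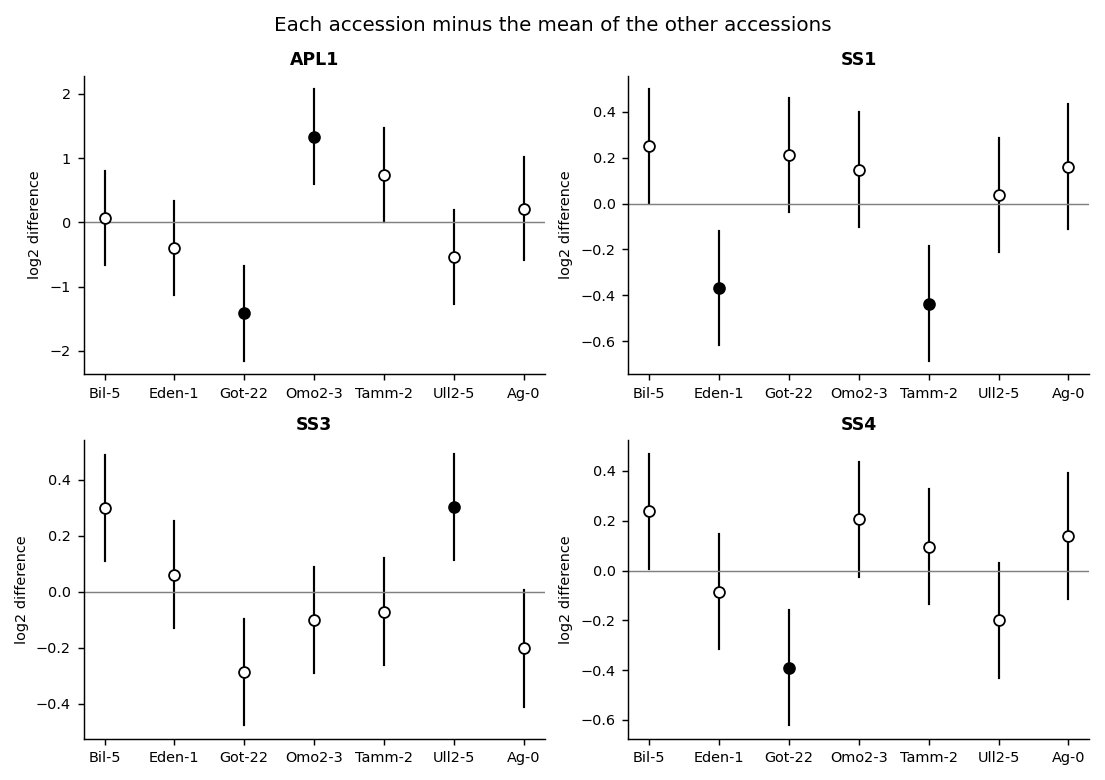
Level of APL1, SS1, SS3 and SS4 in each accession minus the mean of the other 6 accessions, in log2 units (y axis), averaged over dry and wet groups; bars are 95% intervals and filled points have a limma adjusted p under 0.05. Got-22 is low for APL1 and SS4, Omo2-3 high for APL1, Eden-1 and Tamm-2 low for SS1, and Ull2-5 high for SS3.

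SS1 was low in Tamm-2 (7.37, against 7.80 in the others, -0.44 ± 0.12, limma adjusted p = 0.0228) and in Eden-1 (7.42, against 7.79, -0.37 ± 0.12, 0.0312). The other 5 accessions lay between 7.77 and 7.96. By water level, Eden-1 averaged 7.41 on dry arrays, against 7.99 over all dry arrays. On wet arrays it averaged 7.44, near the 7.49 over all wet arrays, so its low level was seen mainly on dry arrays. Tamm-2 averaged 7.81 on dry and 6.93 on wet arrays. SS4 was low in Got-22, at 7.46 against 7.85 (-0.39 ± 0.11, adjusted p = 0.0281), and SS3 was high in Ull2-5, at 5.88 against 5.58 (0.30 ± 0.09, adjusted p = 0.0406). Bil-5 had the same SS3 level and difference (5.88 against 5.58, 0.30 ± 0.09) just outside the threshold (0.0604), and Got-22 read 5.38 against 5.66 (-0.29 ± 0.09, 0.0536). Each of these calls was lost without some single array. For SS1 in Tamm-2 these were dry replicates 1 (0.163) and 2 (0.0707) and wet replicate 1 (0.0974), and for SS1 in Eden-1 dry replicates 1 to 3 (0.0625, 0.0537 and 0.0791) and wet replicate 3 (-0.23, 0.227). For SS4 in Got-22 they were replicates 1 and 2 of both water levels (0.102 to 0.165). For SS3 in Ull2-5 they were dry replicate 1 (0.19, adjusted p = 0.279), wet replicates 1 to 3 (0.0747, 0.0756 and 0.113) and Ag-0 dry replicate 3 (0.0542).

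More calls between accessions were made once the arrays of low weight were left out. Then 15 of the 70 gene and accession pairs passed, or 21.4%, against 11.4% over all loci, and 8 of the 10 genes passed the accession test, against 42.3% of all loci, with APL3 (limma adjusted p = 0.000432), APL4 (0.00056), GBSS1 (0.00471) and APL2 (0.0401) added. In that fit Omo2-3 was low for APL3 (-1.27 ± 0.31, adjusted p = 0.00695), APL4 (-0.75 ± 0.21, 0.0180) and GBSS1 (-1.07 ± 0.31, 0.0213), the accession in which APL1 was high. Eden-1 was high for APL3 (1.01 ± 0.31, 0.0184) and GBSS1 (1.002 ± 0.31, 0.0189). The arrays left out were picked on these same values, for lying far from their groups. A narrower spread and more calls follow in part from that choice, and the shares over all loci rose too. Over all arrays GBSS1 differed by 0.99 in Eden-1 (limma adjusted p = 0.136) and by -1.08 in Omo2-3 (0.154), much the same sizes with a wider spread.

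Some of the 10 genes scattered together across arrays. Taking each array as its deviation from the mean of its own group removes the mean differences between accessions and water levels. What is left is variation between arrays of 1 group, and its sources were not tested. On that scale APL3 and APL4 correlated at r = 0.94 (Spearman 0.95, n = 41 arrays) and APL3 and GBSS1 at r = 0.87 (Spearman 0.75). Without the 2 arrays farthest from the median of APL3, these were 0.91 and 0.77. Without the 3 arrays of low weight they were 0.86 and 0.66 (n = 38). Among dry arrays alone the APL3 and GBSS1 pair stood at 0.93 and among wet arrays at 0.52. The points share their array and RNA sample, so these are descriptions and carry no p.

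APL1 went the opposite way. Against APL3 its deviations gave r = -0.72 (Spearman -0.73), with -0.65 without the 2 farthest arrays and -0.62 without the 3 of low weight. Over dry arrays the value was -0.88 and over wet arrays -0.68. Single arrays serve as examples, of which Bil-5 dry replicate 3 and Tamm-2 dry replicate 3 were of low weight. Bil-5 dry replicate 3, lowest of its group for APL3 (4.56), was the highest for APL1, at 9.03 against 7.27 and 6.71 on the other dry arrays. Tamm-2 dry replicate 3, highest for APL3 (10.07), was the lowest for APL1, at 6.73 against 8.17 and 8.70. In Omo2-3 wet replicate 1, APL1 read 8.99 and APL3 4.46. Of the 45 gene pairs, 12 had r above 0.5 and 3 below -0.5, and those 3 were APL1 with APL2, APL3 and APL4. Without the 3 arrays of low weight 7 pairs lay above 0.5 and 2 below -0.5, with APL1 and APL2 at -0.39 and APL2 and APL3 at 0.36, against 0.66 over all arrays. Shares over pairs of all loci were not computed, so these counts are not shown to be particular to the starch genes.

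**Figure D4:**
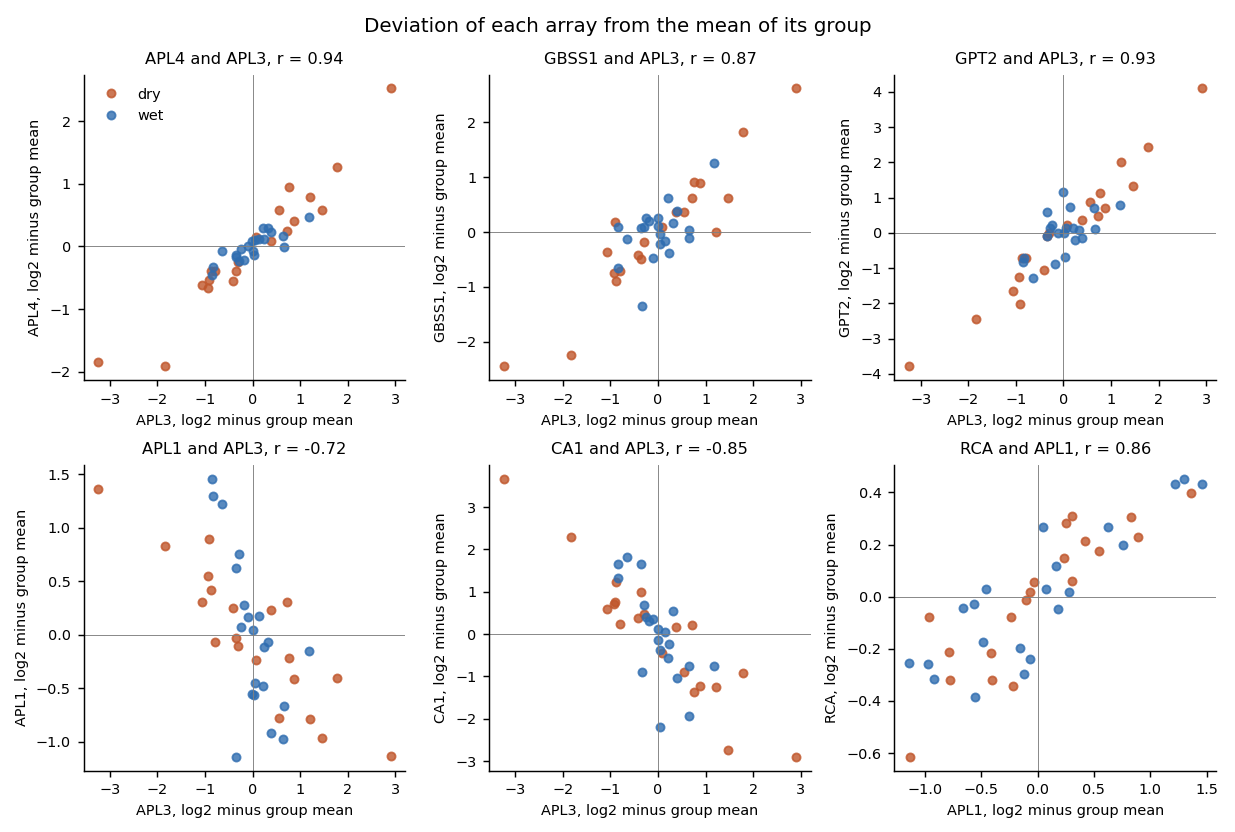
Deviation of each of the 41 arrays from the mean of its group, in log2 units on both axes, for 6 gene pairs, with dry arrays in orange and wet arrays in blue. APL4, GBSS1 and the transporter gene GPT2 rise with APL3, APL1 and the carbonic anhydrase gene CA1 fall with it, and the Rubisco activase gene RCA rises with APL1.

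Outside the 10 genes, the loci most like APL1 were CRB (r = 0.95) and PGK1 (0.94), over all 41 arrays after subtraction of each accession's mean. The photosynthesis genes RCA, the Rubisco activase, and CA1, a carbonic anhydrase, both had r = 0.86 with APL1 in deviations from group means, and PSBO1 had r = 0.80. CA1 gave r = -0.85 with APL3. These photosynthesis genes were compared after the drying values of the genes had been seen. The locus most like both APL3 (r = 0.93) and APL4 (0.94) was GPT2, which carries glucose 6-phosphate into plastids and is known to be raised by sugar. GBSS1 was most like DPE2, of maltose use in the cytosol (r = 0.90), APS1 most like PHR2 (0.91), SS4 most like ACD32.1 (0.87), and SS1 most like FtsHi1 (0.82). For SS2 and SS3 the nearest loci reached 0.76 and 0.69, and for APL2 0.80. These nearest-locus values still hold the dry and wet difference. In deviations from group means r was 0.88 for GBSS1 with DPE2 and 0.82 for APS1 with PHR2. It was 0.72 for SS4 with ACD32.1 and 0.59 for SS1 with FtsHi1.

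Of 16 further genes of starch synthesis measured, 10 rose and 1 fell, with a median change of 0.33, against 12.2% and 11.5% of all loci. Both main branching enzyme genes rose, BE3 by 0.81 ± 0.12 (limma adjusted p = 2.30e-05) and BE2 by 0.74 ± 0.15 (0.000355). The genes of the debranching enzyme pair, which trims the chains so that they can crystallise, rose by 0.55 ± 0.08 (ISA1) and 0.85 ± 0.16 (ISA2). PTST1, which brings GBSS1 to the granule, rose by 0.45 ± 0.08, and SS5, a non-catalytic relative of SS4, by 0.20 ± 0.06. The other risers were PGM1, which makes glucose 1-phosphate (0.40 ± 0.13), PTST3 (0.23 ± 0.08), BE1 (0.35 ± 0.13) and GPT2 (1.32 ± 0.49). Without the 3 arrays of low weight PGM1 (limma adjusted p = 0.0566) and PTST3 (0.0843) did not pass, and with array quality weights PGM1 differed by 0.26 and did not pass (0.136). GPT1, the transporter related to GPT2, fell by 0.41 ± 0.08 on the log2 scale (limma adjusted p = 0.000639). PGI1, MRC, PTST2, LESV and APS2 did not pass.

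GPT2 shared the arrays of APL3, and leaving out 1 of 28 arrays ended its call (limma adjusted p = 0.0474 with all arrays, and 0.0949 at most). For BE1 it was 1 of 22 (0.141 at most). Without Ag-0 dry replicate 2, the array behind both of these highest values, 5 of the 16 genes rose, and the calls of PGM1, PTST3 and SS5 ended too. Without Bil-5 also 5 rose, and without Ull2-5 6 rose.

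**Figure D5:**
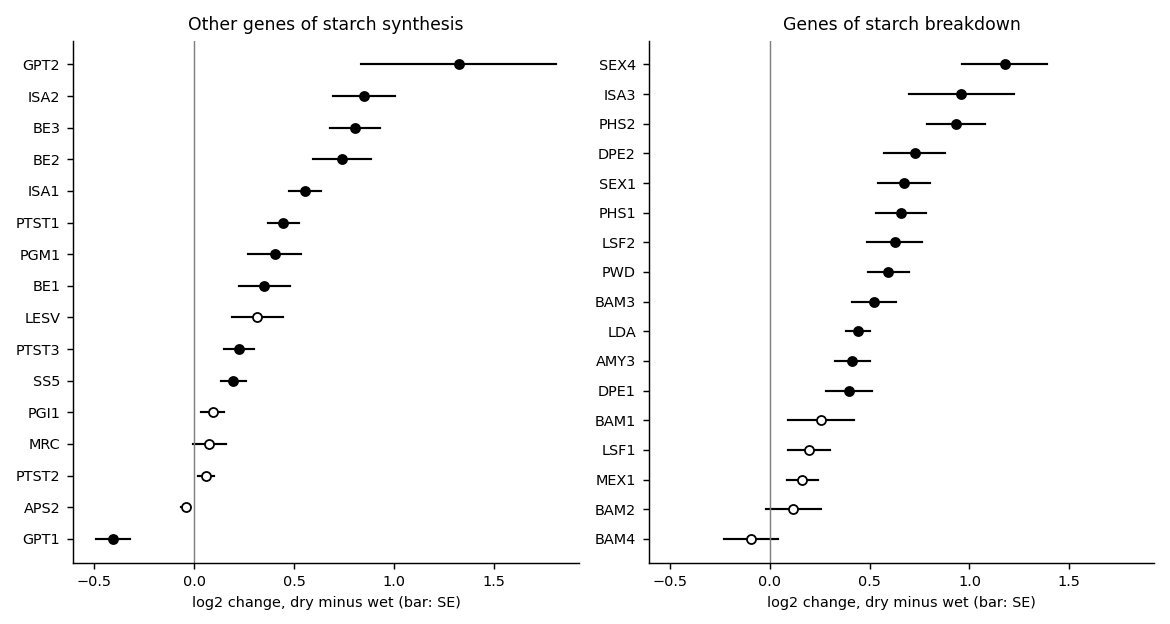
Drying change in log2 units, dry minus wet (x axis), with SE bars, of 16 other genes of starch synthesis (left) and 17 genes of starch breakdown (right), filled where limma's adjusted p was under 0.05. Most lie above 0 in both panels, and GPT1 lies below 0 at -0.41.

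Genes of starch breakdown moved in the same direction, 12 of 17 rising and 0 falling, with a median change of 0.52. Over all loci 12.2% rose and 11.5% fell, with a median change of -0.0002. The glucan phosphatase gene SEX4 (1.18 ± 0.21), the debranching gene ISA3 (0.96 ± 0.26) and PHS2, a cytosolic glucan phosphorylase (0.93 ± 0.14), led them. The medians of 0.59 for the 10 synthesis genes and 0.52 for the breakdown genes were not tested against each other.

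Clock genes and cell type markers were read beside these results. Of 8 clock genes 1 rose (ELF3, 0.27 ± 0.08) and 1 fell (PRR5, by 0.46 ± 0.13 on the log2 scale; limma adjusted p = 0.0112), close to the 12.2% and 11.5% of all loci, and the mean of the 8 ran from 6.81 to 7.39 on dry arrays and from 6.56 to 7.40 on wet arrays. Of the 6 that did not pass, CCA1 changed by 0.36 ± 0.14 (limma adjusted p = 0.0624) and LHY by 0.17 ± 0.13 (0.407). Both were positive in 7 of 7 accessions. PRR7, TOC1, GI and ELF4 changed by 0.12, 0.11, 0.10 and -0.02. GBSS1 is known to be under clock control. Its deviations within groups gave r = -0.67 with PRR5 (-0.70 without the arrays of low weight) and r = 0.54 with CCA1 (0.37 without them). With the other clock genes GBSS1 ran from -0.46 (PRR7) to 0.33 (ELF4), with 0.21 for LHY, 0.16 for GI and 0.02 for ELF3. SS4 gave r = 0.62 with PRR5. Other starch synthesis genes reached similar sizes, such as APL2 with PRR7 (-0.61), APL4 with PRR5 (-0.55) and APL1 with PRR7 (0.54). Such values are thus not particular to GBSS1 or SS4. All 4 of 4 phloem markers fell, with a median change of -0.36 and a mean level of 7.88 to 9.28 on dry arrays and 8.53 to 9.75 on wet arrays. Of 5 guard cell markers 0 rose and 1 fell. The leaf photosynthesis markers showed 1 rise (PSBO1, 0.28 ± 0.09) among 3 measured. The part of the clock genes and of the phloem markers in the starch gene changes was not tested.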

How the data were processed

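The deposited table gives a single number for each locus on each array; the log2 scale was inferred from the deposited values, which run from 3.35 to 14.30. RMA and MAS5 are named per the submitters' processing notes, without roles or versions; no source used here gives the genome build or probe filters. Symbols came from a RefSeq gene table of assembly TAIR10.1. No locus was removed and 0 columns belonged to other samples. With limma 3.58.1 (R 4.3.3), lmFit and eBayes fitted a mean for each of 14 groups over all 41 arrays (27 residual degrees of freedom). Contrasts were dry minus wet averaged over accessions or within 1, moderated F tests for the interaction and for accession means, and each accession against the others. P-values are two-sided, with Benjamini-Hochberg adjustment across the 21164 loci. Precision is limited by how many arrays there are. The fit was tested on simulated data. All measured members and list genes could be named, and for each member the 2 most correlated loci. Members and lists were chosen with earlier results of these data known. Alternatives were other normalizations, a low-value filter, a trend and robust prior, array weights, a replicate block, an additive model, and leaving out arrays or accessions. The correlation partners of the members and alternatives for the lists were added after seeing the data.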

Additional observations from a re-analysis of the deposited data

How the results depend on the processing

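The count of starch synthesis genes that rose was 7, with 6 to 8 when single arrays were left out, 5 to 7 when accessions were, and 7 or 8 under the other settings; 0 fell and 0 were called by the interaction in any of them. The accession test called 4 genes, 3 to 5 without single arrays, but 7 with array quality weights, 8 without the arrays of weight under 0.5, 2 without Got-22 (APL1 and SS4 lost) and 1 on wet arrays only (APL4, with the 4 lost); over all loci it called 6635, 10129 with weights, 3114 on wet arrays only and 4255 without Eden-1. Calls within accessions numbered 5, with 3 to 9 without single arrays, 8 with array quality weights and 0 in fits of each accession alone. Calls of an accession against the others numbered 6, with 4 to 8 without single arrays, 14 with weights and 15 without the low-weight arrays, while the share over all loci was 8.34%, 13.5% with weights and 11.4% without those arrays. Of the other synthesis genes 10 rose, with 5 to 11 without single arrays, 5 without Bil-5 and 6 without Ull2-5. The SS3 drying change, not called, was -0.022 without Bil-5 and ran from -0.0040 (without Eden-1 dry replicate 2) to 0.062 without single arrays. The interaction called 6 of all loci, 99 with array weights and 38 without the low-weight arrays, 3 to 13 without single arrays, and 13, 2 and 3 without Bil-5, Eden-1 and Got-22. Fits of 1 accession have fewer arrays and leave the changes as they were, and why their calls ended was not tested. Whether replicate numbers pair the samples is not settled. Deviations of same-numbered dry and wet arrays correlated at -0.49 to 0.54, with 10 of 20 pairs over 0.1. All were positive in Eden-1 (0.12 to 0.54), Tamm-2 (0.09 to 0.39), Ull2-5 (0.15 to 0.37) and Ag-0 (0.17 and 0.53). Signs were mixed in Bil-5, Got-22 and Omo2-3. The replicate block fits 1 shift per replicate number over all accessions, so it cannot show pairing within an accession. It left 7 risers and 4 accession calls, and it ended the call of GPT2 (limma adjusted p = 0.0567). Groups of 2 or 3 arrays leave changes within 1 accession imprecise.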
